A study of Mus musculus with 10 samples.

Results

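The tumour necrosis factor (TNF) receptor superfamily was followed in liver through 8 listed genes: *Tnfrsf1a*, *Tnfrsf1b*, *Fas*, *Tnfrsf10b*, *Tnfrsf12a*, *Tnfrsf14*, *Tnfrsf21* and *Ltbr*. They were taken by symbol, and 7 of the 8 were found among the 12148 genes of the table. *Tnfrsf10b* was not analysed here. All animals were wild-type germ-free (GF) C57BL/6 mice, of which 5 received microbiota-derived extracellular vesicles (GF+MEV) and 5 received only the PBS carrier (GF+PBS). The vesicles had been purified from caecal content or faeces of colonised mice and were given by mouth at 80 μg per dose, 2 doses per week for 3 weeks. Age and sex of the germ-free mice are not given in the sources used here, and the RNA is of whole liver from 1 experiment. Each library held between 15746119 and 20523649 counts on genes. GF+MEV replicate 2 stood apart from its group, with a chi-square per gene of 134.8 to 176 against the other treated livers, which differed from each other by 8.22 to 21.4. The separation was smaller by root mean square log2 difference over the genes most variable among GF+MEV livers. By that measure replicate 2 differed from the others by 1.19 to 1.27, and they from each other by 0.883 to 1.13. Without GF+MEV replicate 2, 786 genes were called in place of 928. The fitted log2 ratio of GF+MEV over GF+PBS (log2FC) was then 1.78 for *Tnfrsf1b* (edgeR adjusted p = 4.1e-09). On the same variable genes, GF+PBS replicates 1 and 3, and 4 and 5, were closer than other pairs of that group (root mean square log2 difference 0.494 and 0.427, others 0.647 to 0.851). Their chi-square per gene was 6.36 and 7.20. That of GF+PBS replicates 2 and 5 was not far above, at 8.57, and the remaining pairs of that group had 14.1 to 25.0. With replicates 1 and 3, and 4 and 5, each summed, 561 genes were called in place of 928. *Tnfrsf1b* then had an edgeR adjusted p of 5.7e-08.

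TNF receptors are transmembrane proteins that bind trimeric ligands of the TNF family. One kind carries a death domain in its cytoplasmic tail and can start caspase activation, and the other recruits TRAF adaptors directly and signals mainly to NF-κB and the JNK and p38 kinases. In liver, TNFR1 (*Tnfrsf1a*) and FAS are the textbook death receptors of hepatocytes, whereas TNFR2 (*Tnfrsf1b*) has no death domain and is best known from leukocytes and endothelium. Both TNF receptors can be cut from the cell surface by the protease ADAM17.

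The data showed 1 receptor gene apart from all the others. *Tnfrsf1b* was higher in GF+MEV livers by 3.41-fold, and none of the 6 other receptor genes passed the test. Called genes were 1 of 7 in this family, higher in GF+MEV, and 928 of 12147 over all genes tested (7.64%), of which 500 were higher (4.12%) and 428 lower (3.52%). A share of 7 genes that rests on 1 of them says little beside that background.

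*Tnfrsf1b* (ENSMUSG00000028599) lies on the minus strand of chromosome 4 of GRCm38, from 145213463 to 145246870, and its exons share no base with those of another annotated gene. In GF+MEV livers it was 86.2, 82.9, 90.9, 86.6 and 83.7 CPM (replicates 1 to 5), a count scaled to library size by TMM. In GF+PBS livers it was 23.9, 25.95, 24.9, 27.5 and 23.9 CPM. Every treated liver stood above every control liver, with no value between 27.5 and 82.9 CPM. The means were 86.1 ± 3.11 CPM and 25.2 ± 1.54 CPM (SD, n = 5 each), which is a log2FC of 1.77 with a standard error of 0.045 (edgeR adjusted p = 4.5e-10). An exact permutation test (two-sided, n = 5 per group) gave p = 0.00794, the smallest that groups of this size allow. The livers of a group were also close to each other. The SD was 3.61% of the mean in GF+MEV, where counting error alone gives 2.64%, and 6.08% in GF+PBS, where it gives 4.74%. Between 1202 and 1882 reads per library stood behind the treated values and between 398 and 545 behind the control values.

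**Figure D1:**
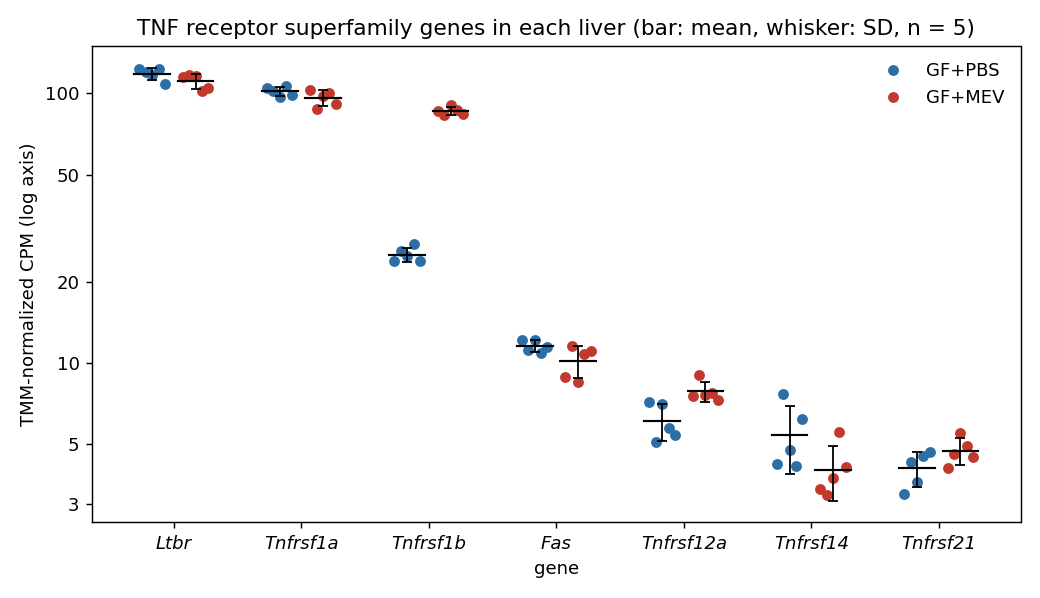
Level of the 7 receptor genes in each liver, as TMM-normalized CPM on a log axis. Points are livers (GF+PBS left, GF+MEV right of each gene), the horizontal line is the mean and the whisker the SD of 5 livers. *Tnfrsf1b* moved from 25.2 to 86.1 CPM, while the points of *Ltbr*, *Tnfrsf1a*, *Fas*, *Tnfrsf14* and *Tnfrsf21* overlapped between the groups.

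The stretch before the start of *Tnfrsf1b* is shown because it is the promoter of the one receptor gene that changed. That of *Tnfrsf12a* is shown beside it as the only other member whose groups did not overlap. Both are RefSeq sequence of GRCm38.p6 on the minus strand, written 5′ to 3′ and ending just before the annotated start of the gene. They cover chr4:145246871-145247120 (250 bases) and chr17:23677469-23677699 (231 bases). Capitals mark a match to the STAT pattern TTCNNNGAA.

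Tnfrsf1b: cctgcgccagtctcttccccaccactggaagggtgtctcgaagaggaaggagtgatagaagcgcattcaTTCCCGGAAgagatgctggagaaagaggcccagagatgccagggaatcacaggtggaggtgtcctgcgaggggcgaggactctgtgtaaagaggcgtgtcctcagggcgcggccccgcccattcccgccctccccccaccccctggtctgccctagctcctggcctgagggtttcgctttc

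Tnfrsf12a: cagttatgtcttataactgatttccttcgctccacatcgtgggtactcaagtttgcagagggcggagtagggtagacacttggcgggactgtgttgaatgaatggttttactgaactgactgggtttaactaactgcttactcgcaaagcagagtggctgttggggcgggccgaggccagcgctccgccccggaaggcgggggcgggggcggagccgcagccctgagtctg

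Short patterns were searched on both strands of windows from 250 bases before to 50 after each start, present for all 7 genes. They were GGGNNTTCC (κB type), TGANTCA (AP-1), ACANNNTGT (core of the glucocorticoid receptor site), TTGCNNAA (C/EBP) and TTCNNNGAA (STAT), the last added after the *Tnfrsf1b* sequence had been read. The *Tnfrsf1b* window held 1 match, to the STAT pattern, which starts at -181 relative to the annotated start. No letters of the other 4 patterns occurred in it. The STAT pattern was also found in the windows of *Tnfrsf1a* (at -244) and *Fas* (at -93), whose levels were not called, and *Fas* held an AP-1 match at -211. The windows of *Tnfrsf12a*, *Tnfrsf14*, *Tnfrsf21* and *Ltbr* held none of the 5. Of all 32851 RefSeq windows of that length, 8.30% held the STAT pattern, 5.82% the κB, 7.81% the AP-1, 6.85% the glucocorticoid receptor and 10.8% the C/EBP pattern. These matches describe letters and not bound sites.

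*Tnfrsf1a* (ENSMUSG00000030341), on chromosome 6 from 125349362 to 125362484, encodes the death domain receptor for the same ligand. It was 103, 87.1, 97.7, 101 and 91.6 CPM in GF+MEV and 105, 102, 96.5, 107 and 98.8 CPM in GF+PBS livers. The ranges overlapped, and the log2FC was -0.08 with a standard error of 0.052 (edgeR adjusted p = 0.459). The exact permutation test of the mean CPM gave p = 0.151 (two-sided, n = 5 per group). In CPM by total counts, without TMM scaling, the treated mean was lower by 10.7 CPM (p = 0.032 by the same exact test), while edgeR on total counts gave an adjusted p of 0.220.

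The balance between the TNF receptors was compared per kilobase of exon, since the exons of *Tnfrsf1b* add up to 3818 bases and those of *Tnfrsf1a* to 2591. On this scale the level of *Tnfrsf1b* was 6.61 ± 0.402 in GF+PBS and 22.5 ± 0.814 in GF+MEV livers (CPM per kb, SD, n = 5), and that of *Tnfrsf1a* 39.3 ± 1.62 and 37.0 ± 2.51. The ratio of *Tnfrsf1b* to *Tnfrsf1a* lay between 0.155 and 0.175 in the 5 control livers and between 0.569 and 0.646 in the 5 treated livers. *Tnfrsf1a* thus stayed the more abundant transcript in all 10 livers, by a narrower margin after MEV. The ratio rests on the same *Tnfrsf1b* values as the comparison above.

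**Figure D2:**
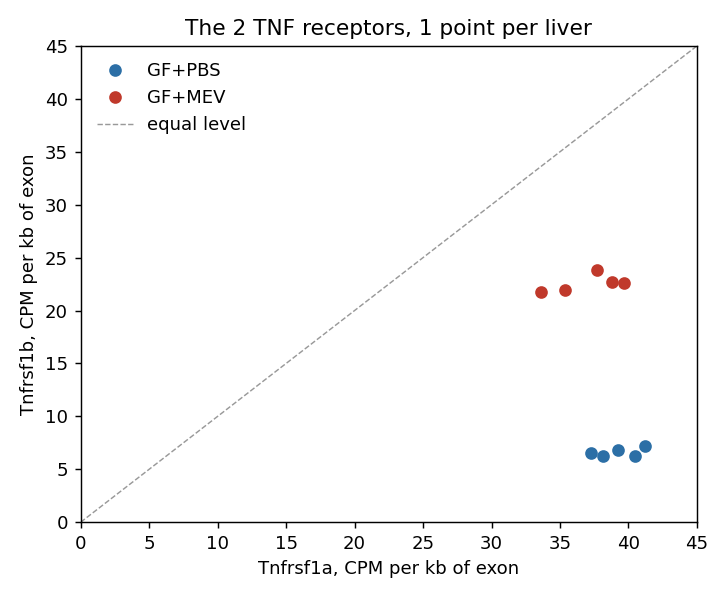
*Tnfrsf1a* (x axis) against *Tnfrsf1b* (y axis) in each liver, both as CPM per kb of exon on linear axes from 0, with a dashed line where both are equal. The 2 groups are apart on the y axis only, and all 10 livers lie below the line.

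Over the 7 genes, *Ltbr* had the highest level per kilobase in both groups, at 47.1 ± 3.06 in GF+MEV and 50.3 ± 2.66 in GF+PBS (CPM per kb, SD, n = 5). *Tnfrsf1a* came next and *Tnfrsf1b* after it, each without overlap with its neighbour within a group. In GF+PBS livers the lowest *Tnfrsf1b* value, 6.26, was still above the highest of *Fas*, 5.90. The neighbours *Fas* and *Tnfrsf12a*, and *Tnfrsf12a* and *Tnfrsf14*, overlapped within GF+MEV, as did *Fas* and *Tnfrsf14*, and *Tnfrsf14* and *Tnfrsf12a*, within GF+PBS. *Tnfrsf21* was lowest in both. The share of *Tnfrsf1b* in the summed level per kilobase of the 7 genes was 5.573% to 6.398% in control and 18.3% to 19.4% in treated livers. The 6 other genes together made 97.8 to 106 CPM per kb in control and 92.8 to 100 CPM per kb in treated livers.

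*Tnfrsf12a* (ENSMUSG00000023905, chromosome 17 from 23675445 to 23677468) encodes Fn14, the receptor for the cytokine TWEAK, known to be induced in regenerating liver. It was 7.56, 9.04, 7.63, 7.75 and 7.32 CPM in GF+MEV livers and 7.16, 5.10, 7.08, 5.76 and 5.40 CPM in GF+PBS livers. The groups did not overlap, but the gap between 7.16 and 7.32 CPM was small, and 90 to 158 reads per library stood behind these values. The log2FC of 0.36 had a standard error of 0.11 and did not pass the test over all genes (edgeR adjusted p = 0.081), though an exact permutation test of the means (two-sided, n = 5 per group) gave p = 0.00794. Without overlap between the groups were 2 of the 7 receptor genes and 7.39% of all genes tested. *Tnfsf12*, the gene of TWEAK, was 2.25 to 3.86 CPM in treated and 2.52 to 3.54 CPM in control livers, with a log2FC of 0.02 (edgeR adjusted p = 0.973). It shares 731 of 1515 exon bases with *Tnfsfm13*, so its count is uncertain.

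*Fas* (ENSMUSG00000024778, chromosome 19 from 34290666 to 34327772), the death receptor for FAS ligand, lay between 8.50 and 11.6 CPM in treated and between 10.9 and 12.2 CPM in control livers. Its log2FC was -0.19 with a standard error of 0.094 (edgeR adjusted p = 0.298). The exact permutation test of the mean CPM gave p = 0.0714 after TMM scaling and p = 0.00794 by total counts (two-sided, n = 5 per group), so that call depended on the scaling. With edgeR on total counts the adjusted p of *Fas* was 0.112. *Tnfrsf21* (ENSMUSG00000023915, chromosome 17 from 43016555 to 43089189) encodes death receptor 6. It ranged from 4.09 to 5.50 CPM in treated and from 3.28 to 4.68 CPM in control livers, with a log2FC of 0.21 and a standard error of 0.12 (edgeR adjusted p = 0.401). Both genes overlapped between the groups.

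**Figure D3:**
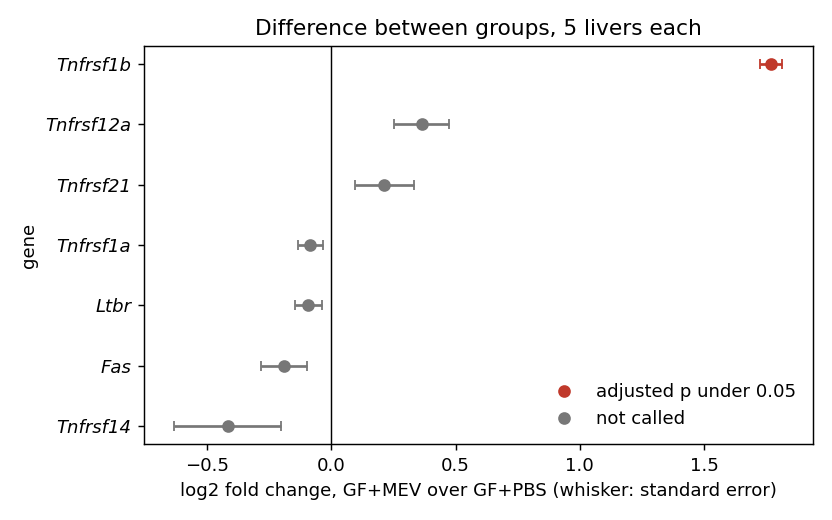
Log2 fold change of each receptor gene, GF+MEV over GF+PBS, with its standard error as whisker (5 livers per group). *Tnfrsf1b* stands at 1.77, and the 6 genes that were not called lie between -0.42 and 0.36.

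*Ltbr* (ENSMUSG00000030339, chromosome 6 from 125306571 to 125313885) encodes the lymphotoxin β receptor, which hepatocytes are known to express and which signals to the non-canonical NF-κB pathway. It was between 102 and 117 CPM in GF+MEV and between 108 and 123 CPM in GF+PBS livers, a log2FC of -0.09 with a standard error of 0.055 (edgeR adjusted p = 0.415). The exact permutation test of the mean CPM of *Ltbr* gave p = 0.135 after TMM scaling and p = 0.024 by total counts (two-sided, n = 5 per group), and edgeR on total counts an adjusted p of 0.115. *Tnfrsf14* (ENSMUSG00000042333, chromosome 4 from 154921933 to 154928563) encodes HVEM, a receptor for LIGHT and BTLA found on lymphocytes and epithelia. It was 3.42, 3.24, 3.77, 5.56 and 4.11 CPM in treated and 4.22, 7.68, 4.76, 4.14 and 6.19 CPM in control livers. This gene varied most within groups, by 23.0% and 28.1% of the mean, and was not called (log2FC -0.42, standard error 0.21, edgeR adjusted p = 0.240).

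Of 20 further receptors of the family 4 had counts in the table, and none of these was called. No gene of the deposited table had fewer than 59 counts over its 15 columns. A gene absent from it may still have had reads. *Tnfrsf19* (TROY) was 6.76 to 8.74 CPM in GF+MEV and 7.27 to 11.3 CPM in GF+PBS, with a log2FC of -0.40 (edgeR adjusted p = 0.060). *Ngfr*, the p75 neurotrophin receptor of stellate cells, had one of -0.35 (edgeR adjusted p = 0.343), *Tnfrsf11b* (osteoprotegerin) -0.19 (0.671) and *Tnfrsf11a* (RANK) 0.24 (0.754). At an unadjusted p under 0.05, *Tnfrsf19* was the only one of these 4, and it was called by DESeq2, under upper-quartile scaling, and without GF+MEV replicate 5 or GF+PBS replicate 1.

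Among 18 ligand genes of the family 4 had counts, and 1 was called. *Tnfsf10*, the gene of TRAIL, was lower in treated livers, at 1.22, 2.48, 3.77, 3.31 and 2.44 CPM against 3.50, 6.56, 5.48, 6.67 and 7.15 CPM. The lowest control liver fell inside the treated range and the other control livers lay above it. The log2FC was -1.13 (edgeR adjusted p = 0.012). *Ltb*, a subunit of the ligand of *Ltbr*, was 0.90 to 1.17 CPM in treated and 1.07 to 1.91 CPM in control livers, a log2FC of -0.51 (edgeR adjusted p = 0.156). *Eda* had a log2FC of -0.04 (edgeR adjusted p = 0.942). The genes of TNF itself and of FAS ligand were not analysed here.

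Genes that act just below the receptors were tested in the same way, and most did not pass. Of 23 adaptors and ubiquitin enzymes of the receptor complex 22 had counts, none was higher and 2 were lower. Beside this and the list counts below, 4.12% of all genes tested were called higher and 3.52% lower. The TNF receptor adaptor *Traf2* had a log2FC of -0.07, the TNFR1 adaptor *Tradd* -0.24 and the kinase *Ripk1* -0.06 (edgeR adjusted p of 0.738, 0.167 and 0.695). Called lower were *Traf5* (-0.62, edgeR adjusted p = 0.036), a TRAF adaptor, and *Tab1* (-0.39, 0.034), a partner of the kinase TAK1. Both calls were marginal. *Traf5* was not past the threshold without GF+MEV replicate 1, 2, 3 or 4 or GF+PBS replicate 2, 4 or 5, and *Tab1* without GF+MEV replicate 1, 2, 4 or 5 or GF+PBS replicate 1, 3 or 4. Their highest adjusted p over the 20 settings run were 0.082 and 0.114. The median log2FC of this list was -0.02, beside -0.0037 over all genes.

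Of 16 genes of the death-inducing complex and caspases 15 had counts. Only *Casp6*, an executioner caspase, was called, at 26.01 to 28.3 CPM in treated and 30.4 to 33.5 CPM in control livers without overlap (log2FC -0.25, edgeR adjusted p = 0.013, and 0.073 with the similar control livers summed). *Fadd* and *Casp8*, the adaptor and the initiator caspase of death receptors, had log2FC values of -0.12 and -0.02, and their inhibitor *Cflar* -0.14 (edgeR adjusted p of 0.412, 0.920 and 0.365). The median of the list was -0.10.

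All 15 NF-κB genes on the list had counts, and 3 were higher and 2 lower, beside 4.12% and 3.52% of all genes tested. *Nfkbia*, which encodes the inhibitor IκBα and is itself an NF-κB target, was 71.8, 66.2, 67.5, 69.0 and 69.3 CPM in GF+MEV livers. In GF+PBS livers it was 33.2, 40.1, 33.8, 37.8 and 37.3 CPM. The groups were far apart, with a log2FC of 0.92 (edgeR adjusted p = 3.5e-07). *Rel*, a subunit gene, had a log2FC of 0.70 (edgeR adjusted p = 0.020), and *Tnfaip3*, the gene of the deubiquitinase A20, 0.56 (0.027). Lower were *Map3k14*, the gene of the kinase NIK (-0.998, edgeR adjusted p = 0.0056), and *Bcl3*, an atypical IκB (-0.60, 0.0054). *Rel* lost its call without GF+MEV replicate 4 or GF+PBS replicate 3, and *Tnfaip3* without GF+MEV replicate 1 or 3 or GF+PBS replicate 3 or 4, with highest adjusted p over the 20 settings of 0.052 and 0.075. The call of *Tnfaip3* was also lost under total-count scaling and with the similar control livers summed. Without GF+PBS replicate 3 the count over the list was 3. The other subunits, *Nfkb1*, *Nfkb2*, *Rela* and *Relb*, had log2FC values from -0.13 to 0.11 and were not called. The median of the list was 0.05.

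Genes that TNF and NF-κB are known to induce did not move one way. Of 20, 14 had counts, and 3 were higher and 2 lower, beside 4.12% and 3.52% of all genes tested. The median log2FC of the list was -0.17. The higher genes were *Nfkbia* and *Tnfaip3*, which stand on the list above as well, and *Vcam1*, an adhesion molecule (1.02, edgeR adjusted p = 8.85e-05). Lower were *Tnfaip2*, from 17.9 to 31.8 CPM in control to 8.80 to 12.5 CPM in treated livers (-1.15, edgeR adjusted p = 0.00081), and the chemokine *Cxcl10* (-1.36, 0.0074). *Birc3*, *Icam1*, *Cxcl1* and *Sod2*, commonly read as NF-κB targets, had log2FC values of -0.21, -0.35, -0.56 and -0.06 and were not called (edgeR adjusted p between 0.196 and 0.550). The remaining genes of the list were not called either. They were *Nfkbie* (-0.40), *Csf1* (-0.32), *Nfkb2* (-0.13), *Relb* (-0.13) and *Nfkbiz* (0.13), with edgeR adjusted p between 0.237 and 0.802.

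**Figure D4:**
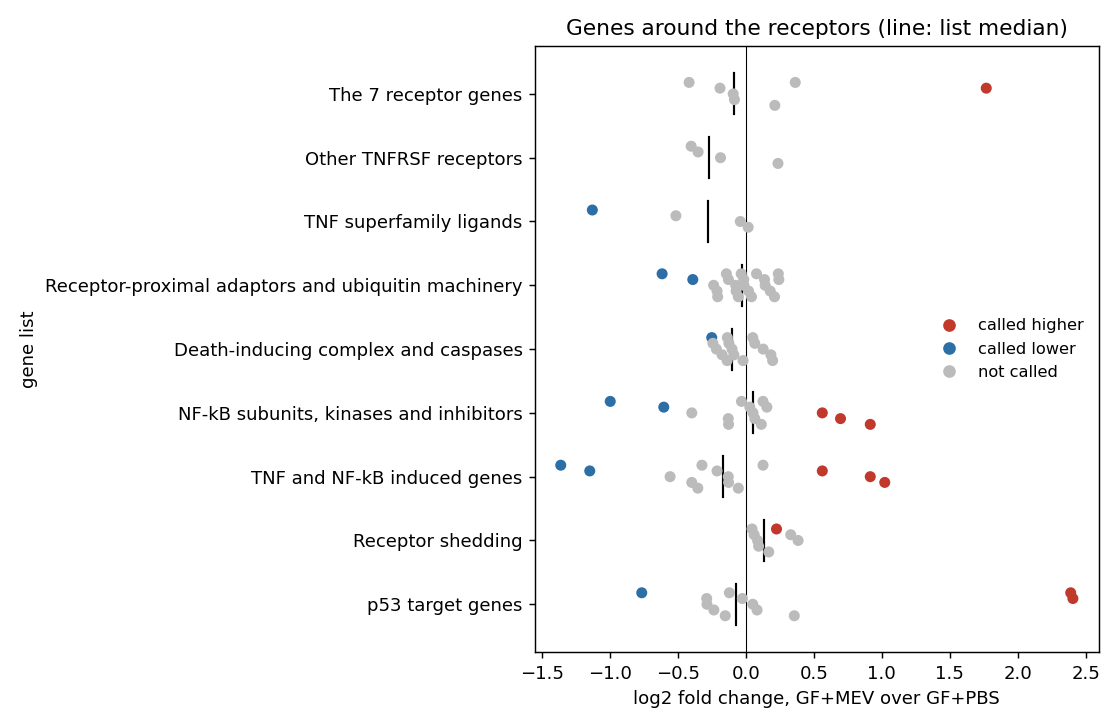
Log2 fold change of each gene with counts on the 9 lists, GF+MEV over GF+PBS, 1 point per gene, coloured by its call, with the median of each list as a vertical line. Called genes point both ways on the NF-κB, induced and p53 lists, and *Tnfrsf1b* is the only called receptor.

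Genes of receptor shedding were all measured. *Adam17*, the protease that sheds both TNF receptors, had a log2FC of 0.09, *Adam10* 0.06 and the ADAM17 partner *Rhbdf2* 0.38 (edgeR adjusted p of 0.598, 0.749 and 0.061). *Furin*, which cleaves the pro-forms of these proteases, was the 1 called gene of 8, by 0.23 (edgeR adjusted p = 0.024). That call was lost without GF+MEV replicate 3 or GF+PBS replicate 1 or 3, and under upper-quartile and total-count scaling, with a highest adjusted p of 0.195 over the settings run. Because *Fas* and *Tnfrsf10b* are known p53 targets, 15 other p53 targets were read as well. Of the 12 with counts 2 were higher, the cell cycle inhibitor gene *Cdkn1a* (2.39, edgeR adjusted p = 0.00012) and *Trp53inp1* (2.41, 9.3e-08), and 1 was lower, the proapoptotic *Bbc3* (-0.77, 0.00085). *Mdm2*, *Ccng1* and *Bax* had log2FC values of 0.08, -0.15 and 0.05 and were not called. *Sesn2* was not called either, at 0.36 (edgeR adjusted p = 0.053), though its groups did not overlap. The other uncalled targets, *Zmat3*, *Phlda3*, *Sesn1*, *Aen* and *Perp*, had log2FC values from -0.29 to -0.03. Exons of *Bcl3*, *Tnfaip2*, *Vcam1*, *Cxcl10*, *Furin*, *Traf5* and *Cdkn1a* overlap a gene on the other strand as do those of *Ripk1*, *Fadd*, *Nfkb2*, *Icam1* and *Adam17*. Those of *Map3k14*, *Traf5*, *Ripk1* and *Bax* overlap a gene on the same strand, so reads of these neighbours may be in their counts.

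Across the 10 livers, the genes whose log2 CPM followed that of *Tnfrsf1b* most closely were *Nfkbia* (Pearson r = 0.989), *Pim3* (0.988) and *Irf2bp2* (0.988). *Pim3*, a kinase gene, rose from 85.8 ± 13.99 to 418 ± 27.7 CPM and *Irf2bp2*, a transcriptional corepressor gene, from 27.3 ± 4.35 to 111 ± 6.39 CPM (SD, n = 5 each). Such correlations follow from the difference between the groups that these genes share and are given as a description.

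Markers of the cell types in liver were read beside the receptors, since in whole tissue fewer cells of a type and less RNA per cell cannot be told apart. Hepatocyte genes were present at high level, with *Alb* at 64586 CPM in the lowest liver, and the 7 of 8 markers with counts summed to 84493 to 103569 CPM in treated and 88651 to 104747 CPM in control livers. *Hnf4a* and *Cps1* were called higher (log2FC 0.45 and 0.38), and the call of *Cps1* was lost when any liver other than GF+MEV replicate 2 or GF+PBS replicate 5 was left out. That call was also lost under upper-quartile and total-count scaling and with the similar control livers summed. The sum of 11 of 12 Kupffer cell and macrophage markers lay between 303 and 565 CPM (median 317) in treated livers. In control livers it lay between 349 and 492 CPM (median 443). An exact permutation test of this sum (two-sided, n = 5 per group) gave p = 0.405. None of the 11 was called, and their median log2FC was -0.15, beside -0.0037 over all genes. The highest sum, 565 CPM, was in GF+MEV replicate 4, whose *Tnfrsf1b* level of 86.6 CPM lay inside the range of the other treated livers. The part of macrophages in the *Tnfrsf1b* level was not tested. *Clec4f*, which marks Kupffer cells, had a log2FC of -0.15 (edgeR adjusted p = 0.416).

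**Figure D5:**
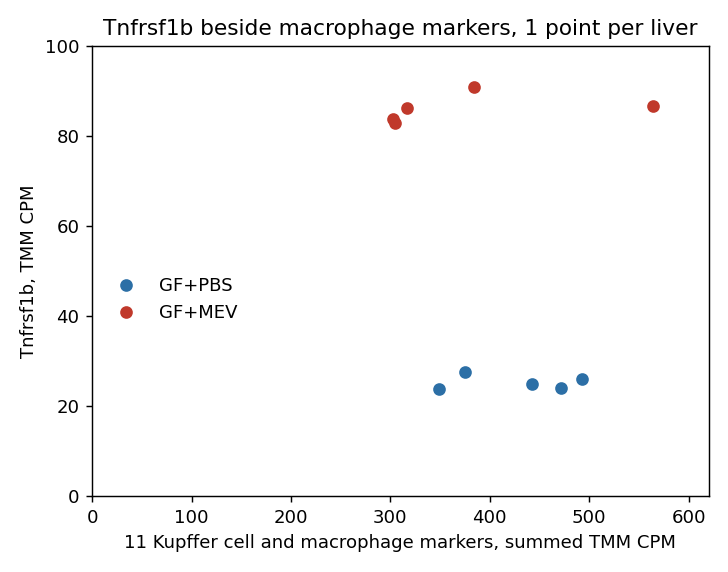
*Tnfrsf1b* (y axis, TMM CPM) against the summed TMM CPM of 11 Kupffer cell and macrophage markers (x axis), 1 point per liver, linear axes from 0. The groups overlap on the x axis and are apart on the y axis. The marker sums are 303 to 565 (median 317) for the treated and 349 to 492 (median 443) for the control livers.

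Of neutrophil markers 1 of 8 had counts (*Csf3r*, 0.96 to 2.35 CPM over all livers), and of T and NK cell markers 1 of 12 (*Il7r*, at most 0.78 CPM), so these lists say little. The 6 B cell markers summed to between 10.99 and 18.0 CPM in GF+MEV and between 18.2 and 25.2 CPM in GF+PBS livers, without overlap, and *Cd79a* and *Cd79b* were called lower (log2FC -0.86 and -0.76). The call of *Cd79b* was lost without GF+MEV replicate 2, 4 or 5 or GF+PBS replicate 3, 4 or 5. *Ltb* and *Tnfrsf14*, also known from lymphocytes, had lower means in the same group, and the part of B cells in their values was not tested. Endothelial markers summed to 117 to 189 CPM in treated and 145 to 197 CPM in control livers, with *Lyve1* called higher and *Clec4g* lower. The call of *Lyve1* was lost without GF+MEV replicate 3 or 5 or GF+PBS replicate 3, 4 or 5, and that of *Clec4g* without GF+MEV replicate 2 or 5 or GF+PBS replicate 3. Stellate cell and fibroblast markers summed to 176 to 251 CPM and 204 to 230 CPM. Of 6 cholangiocyte markers 3 had counts, with sums of 28.1 to 79.3 CPM and 23.2 to 29.7 CPM in treated and control livers. The highest sum was in GF+MEV replicate 2. The exact permutation test of the marker sums (two-sided, n = 5 per group) gave p = 0.00794 for B cells and p = 0.032 for cholangiocytes. By the same test p was 0.270 for endothelial, 0.897 for stellate cell and fibroblast and 0.968 for hepatocyte markers. *Krt19* was called higher, at 5.67, 16.8, 8.21, 9.32 and 0.96 CPM in treated livers against at most 0.78 CPM in control livers. *Sox9* had a log2FC of the other sign (-0.98) and was not called (edgeR adjusted p = 0.103).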

How the data were processed

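Whole-liver RNA of 10 germ-free mice was sequenced, 1 library per mouse. The authors aligned the reads to GRCm38 with STAR 2.7.3a, counted them per Ensembl gene with HTSeq, and deposited raw counts without normalization. The annotation release and the strand setting of the counting are not given in the sources used here. The table also held 5 columns that match none of the samples described, and they were not used. Its lowest sum for a gene over all 15 columns was 59. Genes with few reads may thus be missing from it, and a listed gene without counts may still have had reads.

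Genes with at least 20 counts over the 10 libraries were kept, 12147 of 12148. Symbols, positions and exon lengths came from GENCODE M21 for GRCm38, and 5 identifiers were not found in it. Counts were scaled by TMM and given as CPM. The level per kilobase divides CPM by the length of all annotated exons of the gene merged. Groups were compared with edgeR 4.0.16 in R 4.3.3, by a quasi-likelihood fit on treatment alone, with p-values adjusted over all genes by the Benjamini-Hochberg method and a threshold of 0.05. Standard errors were taken on the log2 CPM scale (prior count 2). Group means of single genes were also compared by an exact permutation test, two-sided.

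The receptor genes, the lists of related genes and the markers were chosen with earlier results of these data known. The rule for names took every receptor gene on the list, every ligand and further receptor with counts, the called genes of the other lists (at most 6 each), the markers, and the 3 genes most correlated with each called receptor. Genes of the other lists that are named though not called, such as *Traf2*, *Rela* or *Birc3*, were picked outside this rule. Alternatives were DESeq2 1.42.0, limma-voom (limma 3.58.1), other scalings and filters, a replicate block, summing GF+PBS livers that resembled each other, and leaving out each liver in turn. The fits were tested on simulated data. Promoter sequences came from RefSeq (GRCm38.p6).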

Additional observations from a re-analysis of the deposited data

Results flagged for a closer look

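By Dixon's ratio, 3 of 80 groups of 5 values held a liver far from the rest, where chance alone gives about 4. *Tnfrsf12a* was 9.04 CPM in GF+MEV replicate 2, against 7.32 to 7.75 CPM in the other treated livers. *Furin* was 429.5 CPM in GF+MEV replicate 3, against 374 to 387 CPM in the rest of its group. GF+MEV replicate 2 had a TMM factor of 0.890, where its group otherwise held 0.978 to 1.01. Without that library *Tnfrsf1b* remained the only called receptor gene, and the part of the low factor in the *Tnfrsf12a* value was not tested.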

How the results depend on the processing

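Exactly 1 receptor gene was called under each of 19 alternatives, *Tnfrsf1b* each time, with a log2 fold change from 1.70 to 1.80. No receptor gene changed direction in these fits. The count over all genes fell from 928 to 561 when GF+PBS replicates 1 and 3, and 4 and 5, were each summed, and ranged from 696 to 926 with 1 liver left out. With upper-quartile scaling 41.2% and with total counts 32.5% of the called genes were higher, against 53.9% with TMM. In CPM by total counts the differences of *Tnfrsf1a* (-10.7), *Fas* (-2.003) and *Ltbr* (-13.5) passed the single-value test. Calls on the lists moved as follows, the cause not being tested. Further receptors had 1 call by DESeq2 and 1 by upper-quartile scaling, and 0 to 1 without a liver. Shedding genes had 2 by DESeq2, 0 by upper-quartile scaling, 0 with summed livers and 0 to 2 without a liver. Adaptors had 0 with summed livers and 0 to 2 without a liver, caspases 0 with summed livers, and NF-κB genes 3 to 5 without a liver. For the lists, the settings with summed or left-out livers were chosen after seeing the data. Which GF+PBS livers to sum was, for every result, taken from their likeness in these data. The deviations of same-numbered livers from their group means had r from -0.20 to 0.19. The labels do not say whether the numbers pair the livers, and these values cannot settle it. With a replicate block 792 genes were called, and *Tab1*, *Traf5*, *Tnfaip3*, *Furin* and the markers *Cd79b*, *Cps1* and *Lyve1* were not. With the summed livers these genes, *Casp6* and *Clec4g* were not called. Total-count scaling lost the calls of *Tnfaip3*, *Furin*, *Cps1* and *Lyve1*, and upper-quartile scaling those of *Furin* and *Cps1*. *Tnfrsf21* (59 to 114 reads per library) varied by 11.2% of the mean in GF+MEV, where counting gives 11.3%, and by 14.9% in GF+PBS, where it gives 11.9%. *Tnfrsf14* (47 to 137 reads) varied by 23.0% and 28.1%, where counting gives 12.5% and 10.5%.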
